A study of Mus musculus with 6 samples.

Results

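Cytotoxic lymphocytes kill target cells with granules, and 10 genes of that system were followed in the RNA of mouse platelets: the granule genes Gzma, Gzmb, Prf1, Nkg7 and Ctsw, the natural killer (NK) cell receptor genes Ncr1, Klra8, Klrk1 and Klrb1c, and the cytokine receptor gene Il2rb. They were picked by name, with the results of the comparison below already known, and all 10 were among the 14975 genes listed in the expression table. Their levels are therefore given as a description and without a test. RNA-seq libraries came from 3 control and 3 pre-AML platelet samples, which the labels call WT and AML. Control platelets came from recipients of normal bone marrow, and pre-AML platelets from recipients of GFP+ leukaemia cells made by transducing haematopoietic stem and progenitor cells with an MLL-AF9 retrovirus, a fusion oncogene of acute myeloid leukaemia. By the methods of the study, the mice were females on a C57BL/6 background aged 8 to 12 weeks. The leukaemic graft was a secondary transplant into sub-lethally irradiated hosts, and pre-AML meant 1 week after transplantation. The paper describes its control recipients as irradiated too and studied at matching time points, and its methods give no radiation dose for them. CD45+ and Ter119+ cells were removed magnetically from platelet-rich plasma before RNA was extracted and amplified by SMART-Seq2. The methods name 3 mice behind each group, whereas the design text of the labels names 2 replicates and pools of 3 to 4 mice. Any p-value below therefore measures the spread between these libraries, which may be partly technical.

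Granzymes are serine proteases stored in the granules of NK cells and cytotoxic T cells, and perforin forms the pores through which they reach the cytosol of a target. NK cells choose targets with germline-encoded receptors, several of which have no signalling tail of their own and work through adaptors such as DAP10 and DAP12. The receptor chain encoded by Il2rb carries the signal of IL-2 and IL-15, the latter a survival factor of NK cells. Platelets have no nucleus and carry the RNA handed down by megakaryocytes or taken up later.

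Values are FPKM, read fragments scaled to exon length and to library size, which can be compared between genes because they are divided by gene length. Whole read numbers could be recovered from them, and gave 11931565 to 13870477 reads in the control and 13532649 to 17758197 reads in the pre-AML libraries. Sums and folds of reads are given as RPM, reads per 1000000 recovered reads, pooled over the 3 libraries of a group where a fold is given. At these depths 3 reads on a gene of 2 kb corresponded to 0.0643 to 0.128 FPKM, so several values below rest on a handful of reads, and all intervals cover counting error only. Genes above 0 numbered 11301 to 11974 in the control and 11688 to 13571 in the pre-AML libraries. The library size behind the FPKM was 1.31 times the recovered reads in pre-AML 3 and 0.983 to 1.01 times in the other 5, so a level in pre-AML 3 is lower in FPKM than per recovered read by that factor, the same for every gene. The library pre-AML 3 was the deepest and stood apart in markers of B cells and of monocytes and macrophages, and results are given with and without it. The platelet gene Itga2b, encoding the integrin αIIb chain, lay between 1389 and 1778 FPKM in all 6 libraries. The sum of 12 platelet markers was 90006 to 114042 FPKM in the controls, 91056 and 92437 FPKM in pre-AML 1 and 2, and 61463 FPKM in pre-AML 3, whereas the 8 listed erythroid markers summed to 2528 to 3184 FPKM over the 6 libraries.

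The promoters of the granule and receptor genes are shown because they share a short motif, the RUNX core TGTGGT, searched on both strands. RefSeq promoter windows from 250 bases before to 50 bases after a start were available for 8 of the 10 genes on GRCm38.p6. Windows of 7 of these genes held the core. Counted by window this was 8 of 10, beside 16.8% of all 32851 windows. The stretches below, read 5′ to 3′ on the strand of the gene, carry the core or its reverse complement in capitals.
Gzma (chr13:113100982-113101231, minus strand): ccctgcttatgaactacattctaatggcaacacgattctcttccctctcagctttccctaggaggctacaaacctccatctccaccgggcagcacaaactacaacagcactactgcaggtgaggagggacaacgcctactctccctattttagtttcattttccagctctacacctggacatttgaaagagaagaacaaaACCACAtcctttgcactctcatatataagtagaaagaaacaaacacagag
Gzmb (chr14:56262345-56262444, minus strand): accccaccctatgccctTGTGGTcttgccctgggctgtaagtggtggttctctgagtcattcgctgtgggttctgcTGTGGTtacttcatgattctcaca
Prf1 (chr10:61297669-61297748, plus strand): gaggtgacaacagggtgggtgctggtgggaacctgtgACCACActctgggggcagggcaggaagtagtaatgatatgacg
Nkg7 (chr7:43437018-43437097, plus strand): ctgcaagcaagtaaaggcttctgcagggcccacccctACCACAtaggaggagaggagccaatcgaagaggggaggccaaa
Ncr1 (chr7:4337637-4337714, plus strand): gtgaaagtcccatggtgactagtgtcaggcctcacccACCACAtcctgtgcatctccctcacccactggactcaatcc
Klrk1 (chr6:129623951-129624030, minus strand): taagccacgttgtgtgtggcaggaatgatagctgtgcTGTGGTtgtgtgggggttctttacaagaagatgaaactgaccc
The core began 50 bases before the start in Gzma, 93 and 34 bases before it in Gzmb, 130 in Prf1, 83 in Nkg7, 176 and 41 in Ncr1, and 129 in Klrk1. These are RefSeq starts, whereas the gene coordinates given below are those of GENCODE, and the 2 differ for some genes. No GENCODE transcript of Gzmb or Prf1 held the bases just after the start used. The stretch printed for Nkg7 runs past the GENCODE start of that gene. Klrb1c held it 89 bases before its start, and Klra8 was the 1 gene of the 8 without it. Of the other motifs searched on both strands, the T-box element GGTGTGA was found in the window of Nkg7 alone (3.98% of all promoters) and the STAT element TTCNNNGAA in those of Gzmb and Nkg7 (8.30% of all promoters). The letters TGTG occur in both the RUNX core and the T-box element, and a match describes the letters and not a bound site. The promoter of Nkg7, whose level overlapped between the groups, held the core as well, and any part of the motif in the levels was not tested.

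Gzma, which encodes the tryptase granzyme A (Entrez 14938, GRCm38 chr13:113093825-113100981, minus strand), went from near absence to a clear signal. It measured 0, 0.353 and 0 FPKM in the controls 1 to 3 and 7.25, 4.61 and 8.90 FPKM in the pre-AML libraries 1 to 3. The lowest pre-AML library was above the highest control by a wide margin, and the control signal came from 5 reads of a single library against 97, 70 and 209 reads. Mean levels were 0.118 ± 0.204 and 6.92 ± 2.16 FPKM (SD, n = 3 each), a log2 difference of 2.80 on the log2(FPKM + 1) scale, and the pooled RPM differed 61.5-fold (95% counting interval 26.1 to 191). Ranked by mean FPKM among the 14975 genes, Gzma moved from place 8501 in the controls to place 1821 in the pre-AML group.

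Gzmb, encoding the caspase-activating protease granzyme B (Entrez 14939, chr14:56258838-56262260, minus strand), measured 0.0593, 0.148 and 0 FPKM in the controls and 1.88, 0.323 and 1.94 FPKM in the pre-AML libraries. Pre-AML 2 was the lowest of its group, with 7 reads against 36 and 65 in the others, but still above every control. The mean FPKM was 0.0693 ± 0.0747 against 1.38 ± 0.918 (SD, n = 3 each), and the pooled RPM differed 22.1-fold (8.38 to 82.5). Prf1, the perforin gene (Entrez 18646, chr10:61297833-61304680, plus strand), had no read in any control and 27, 20 and 78 reads in the pre-AML libraries, or 0.785, 0.513 and 1.29 FPKM. Against a floor of 3 reads over the 3 controls together this was at least 34.1-fold higher.

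The other granule genes of the set behaved differently, and were already present in control platelets. Nkg7, which encodes a granule membrane protein needed for degranulation (Entrez 72310, chr7:43437073-43438249, plus strand), measured 22.9, 28.2 and 18.9 FPKM in the controls and 25.2, 27.9 and 22.6 FPKM in the pre-AML libraries. The groups overlapped throughout, with means of 23.4 ± 4.66 and 25.3 ± 2.66 FPKM (SD, n = 3 each) that differed by less than the SD of either. Nkg7 held place 925 in the controls and place 852 in the pre-AML group by mean FPKM. Ctsw, the gene of the lymphocyte protease cathepsin W (Entrez 13041, chr19:5465043-5468507, minus strand), measured 0.948, 1.13 and 0.623 FPKM in the controls and 0.637, 1.48 and 2.52 FPKM in the pre-AML libraries. Pre-AML 1 lay within the control range and the other two above it, and the difference of the means, 0.900 ± 0.257 against 1.54 ± 0.944 FPKM (SD, n = 3 each), was smaller than the pre-AML SD.

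**Figure D1:**
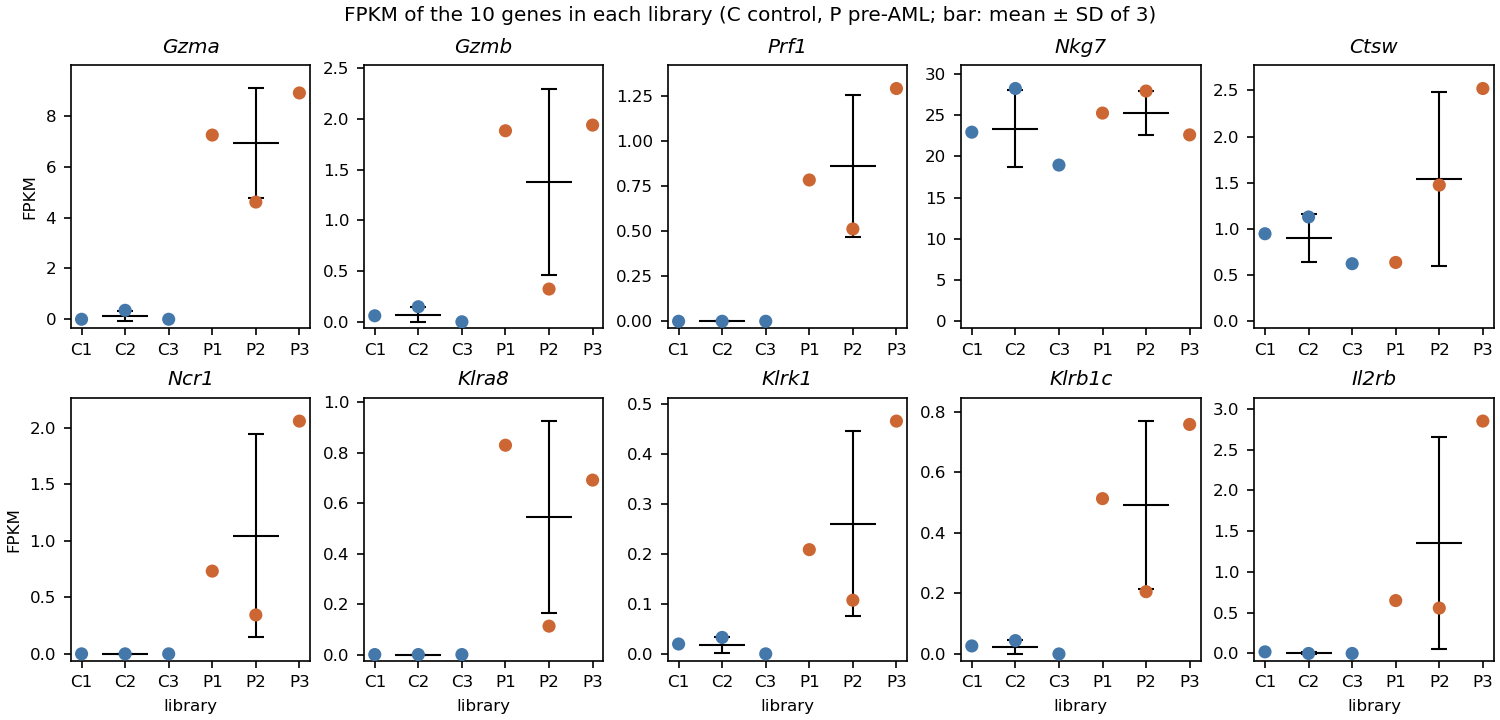
Level of each of the 10 genes in FPKM (vertical axes, linear and on their own scale for each gene) in the control libraries C1 to C3 and the pre-AML libraries P1 to P3 (points), with the mean and SD of each group as bars. All pre-AML points lie above all control points in 8 panels, whereas the groups overlap for Nkg7 and Ctsw.

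Among the receptor genes, Ncr1 encodes the activating receptor NKp46, a defining molecule of NK cells (Entrez 17086, chr7:4337724-4345164, plus strand). It had no read in any control and measured 0.732, 0.344 and 2.06 FPKM in the pre-AML libraries, from 15, 8 and 74 reads, at least 26.4-fold higher than the floor of 3 reads over the controls. Klra8, which encodes Ly49H, the receptor for a cytomegalovirus protein (Entrez 16639, chr6:130115226-130129898, minus strand), was at 0 in the controls and at 0.829, 0.113 and 0.691 FPKM in the pre-AML libraries. The value of pre-AML 2 came from only 2 reads, and the pooled level was at least 9.27-fold higher than the floor. Klra8 has near-identical neighbours in the Ly49 cluster, among which the counting could have split reads, so its own share is uncertain.

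Klrk1 encodes NKG2D, a receptor for stress-induced ligands (Entrez 27007, chr6:129610323-129623864, minus strand), and measured 0.0197, 0.0329 and 0 FPKM in the controls and 0.209, 0.107 and 0.467 FPKM in the pre-AML libraries. It was the lowest of the 10 genes in the pre-AML group, where its pooled RPM were 18.0 times those of the controls (5.89 to 89.5) on the basis of 3 control reads. Klrb1c encodes NK1.1, the classical NK cell antigen of C57BL/6 mice (Entrez 17059, chr6:128778485-128789215, minus strand), and measured 0.0264, 0.0441 and 0 FPKM in the controls and 0.513, 0.205 and 0.757 FPKM in the pre-AML libraries. Its ratio of pooled RPM was 24.3 (8.04 to 120), also on 3 control reads, and 13.9% of its exon bases are shared with the gene Gm44511 on the same strand. For Klrk1 and Klrb1c whole reads came out only after a unit of their own, the smallest that made every library whole. The read numbers of both genes are thus the smallest possible, and a multiple of them would change the intervals. The 4 receptor genes thus stood at or near 0 in every control and above every control in each pre-AML library.

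Il2rb, the IL-2 and IL-15 receptor β chain gene (Entrez 16185, chr15:78479256-78495271, minus strand), measured 0.0199, 0 and 0 FPKM in the controls, a single read in all, and 0.649, 0.557 and 2.85 FPKM in the pre-AML libraries. Pre-AML 3 carried 285 reads against 37 and 36 in the others, the widest gap of any of the 10 genes between that library and pre-AML 1. By mean FPKM Il2rb moved from place 13109 to place 3958. In the pre-AML group the order of the means ran from Nkg7 and Gzma to Ctsw, Gzmb, Il2rb, Ncr1, Prf1, Klra8, Klrb1c and Klrk1. From Ctsw downwards, neighbours in this order differed by less than the larger of their SDs, so that only the places of Nkg7 and Gzma were separated by more than the spread.

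In all, 8 of the 10 genes were above every control in every pre-AML library, a property shown by 7.53% of all listed genes, and no member was below every control (5.74% of all genes). Prf1, Ncr1 and Klra8 were at 0 in all controls and above 0 in all pre-AML libraries, as were 1.08% of all genes. The count of 8 was the same without pre-AML 3 (background then 11.0%), and without pre-AML 1 Ctsw joined to make 9 (background 16.5%). These genes had been chosen from this contrast, so nothing is read from the comparison with the background. Only 3 members, Gzma, Nkg7 and Ctsw, reached the mean of 1 FPKM required for the fit over 4412 genes, the other 7 having lower means. That fit (limma-trend, Benjamini-Hochberg adjusted p under 0.05) called 1 gene higher (0.0227% of genes tested) and 0 genes lower (0%), with 113 genes higher (2.56%) and 288 lower (6.53%) at an unadjusted p under 0.05. With scaling to recovered reads instead, 252 genes were higher and 257 lower at that p, the median log2 difference of all genes tested moved from -0.06 to 0.05, and 0 genes were called. The 1 gene called was Gzma, which had been chosen from this contrast and reached the required mean only through the pre-AML group, so nothing is read from its call.

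Summed over the 8 genes other than Nkg7 and Ctsw, the controls 1 to 3 held 4, 12 and 0 reads, or 0.335, 0.865 and 0 RPM. The count of 0 allows up to 0.308 RPM (95%, exact Poisson). The pre-AML libraries held 259, 160 and 834 reads, or 19.1 (16.9 to 21.6), 10.7 (9.14 to 12.5) and 47.0 (43.8 to 50.3) RPM. Each pre-AML library was far above each control, and the 3 pre-AML intervals did not overlap, so that the libraries differed among themselves by more than counting error. Without Gzma the remaining 7 genes gave 0.335, 0.505 and 0 RPM in the controls and 12.0, 6.04 and 35.2 in the pre-AML libraries, in the same order of libraries. With Nkg7 and Ctsw included, the 10 genes gave 22.7, 29.2 and 18.4 against 43.0, 39.4 and 80.4 RPM, the control sum being mostly Nkg7. In summed FPKM the 8 genes stood at 0.125, 0.579 and 0 in the controls and at 12.8, 6.77 and 19.0 in the pre-AML libraries. In bulk RNA of this kind, fewer cells of a type and less RNA per cell cannot be told apart.

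**Figure D2:**
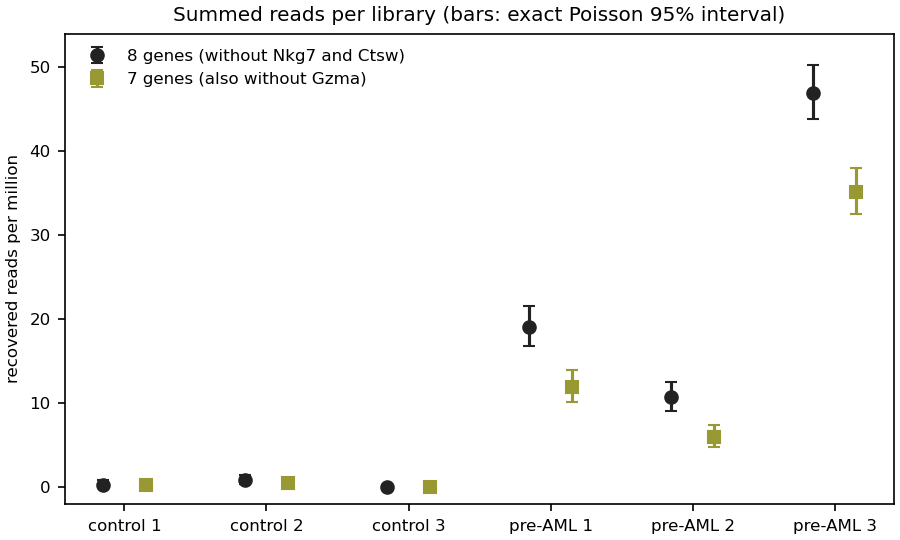
RPM (vertical axis) in each control and pre-AML library, summed over the 8 genes other than Nkg7 and Ctsw (circles) and over 7 genes without Gzma as well (squares), with exact Poisson 95% intervals. The 8-gene sums of the controls lie at 0.865 or lower, and those of the pre-AML libraries at 10.7 or higher.

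The make-up of this signal was not the same in the 3 pre-AML libraries. Gzma supplied 37.5% (Wilson 95% interval 31.8 to 43.5) of the reads of the 8 genes in pre-AML 1, 43.8% (36.3 to 51.5) in pre-AML 2 and 25.1% (22.2 to 28.1) in pre-AML 3. Il2rb supplied 14.3%, 22.5% and 34.2% in the same order, shares of reads that are not corrected for gene length. Per length, Gzma was above Il2rb in each pre-AML library, by a ratio of FPKM of 11.2, 8.29 and 3.13. The share of Prf1 was more even, at 10.4%, 12.5% and 9.35%. As a ratio of FPKM, Gzma was 9.23, 8.99 and 6.88 times Prf1 in pre-AML 1 to 3, whereas it was 3.85, 14.3 and 4.59 times Gzmb, the odd value being that of pre-AML 2 with its 7 Gzmb reads.

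Markers of other leukocytes were set beside these genes, because CD45+ cells had been depleted. Here and below, counts of markers above the highest control are for single libraries. The matching share of all listed genes was not computed, so these counts are a description. Pre-AML 3, the deepest library, also had the most genes above 0 (13571). The NK cell list, of which 14 of 16 genes were listed and none is among the 10 genes, summed to 0.954 to 2.09 FPKM in the controls and to 5.76, 3.36 and 7.50 FPKM in the pre-AML libraries, with 9, 10 and 12 of the 14 above the highest control. All 14 also belong to the pathway lists described further below, so the counts given there are not separate from these. The most abundant gene of the list, Cma1, is also a mast cell gene and measured 1.33, 1.30 and 0.771 FPKM in the controls and 2.55, 1.64 and 0.865 FPKM in the pre-AML libraries. Without it the other 13 markers summed to 0.183 to 0.787 FPKM in the controls and to 3.21, 1.71 and 6.64 FPKM in the pre-AML libraries. Of its defining genes, Eomes was at or near 0 throughout (at most 0.0684 FPKM), and Tbx21, which encodes the other T-box factor of NK cells, was at 0 in all controls and at 0.0906, 0.506 and 0.396 FPKM in the pre-AML libraries. Ptprc, the gene of CD45 itself, lay at 0.00600 to 0.0863 FPKM in the controls and at 0.140, 0.179 and 1.57 FPKM in the pre-AML libraries. Ptprc was thus low in every library and highest in pre-AML 3.

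The B cell list and the monocyte and macrophage list moved mainly in pre-AML 3. The 12 B cell markers summed to 1.82 to 2.38 FPKM in the controls and to 1.92, 8.10 and 87.7 FPKM in the pre-AML libraries, with 0, 8 and 12 markers above the highest control. The 15 monocyte and macrophage markers, whose sum is dominated by Lyz2, gave 2385 to 2616 FPKM in the controls and 2484, 2336 and 3380 FPKM in the pre-AML libraries, with 3, 8 and 14 above the highest control. Csf1r, the receptor gene of that lineage, was at 0.0148, 0 and 0 FPKM in the controls and at 0.0651, 0.459 and 7.30 FPKM in the pre-AML libraries.

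The T cell list, with 14 of 15 genes listed and dominated by Cd28, summed to 13.6 to 16.6 FPKM in the controls and to 13.2, 14.6 and 10.8 FPKM in the pre-AML libraries, and 6, 4 and 10 markers were above the highest control. Cd3e, a chain of the T cell receptor complex, was at 0.0835, 0 and 0 FPKM in the controls and at 0, 0.0162 and 0.242 FPKM in the pre-AML libraries. Cd3g, another chain of that complex, was at 0 in the controls and at 0.0230, 0.0811 and 0.406 FPKM in the pre-AML libraries, all above the controls. Lck, a kinase of T and NK cells, was also above every control, at 0.0582, 0 and 0 against 0.924, 0.181 and 0.951 FPKM. Neutrophil markers (11 of 12 listed) summed to 3.16 to 3.66 FPKM in the controls and in the pre-AML libraries to a higher value in pre-AML 1 and to 2.24 and 1.55 FPKM in pre-AML 2 and 3. Sums for mast cells and basophils (6 of 10 listed) were 18.1 to 25.8 FPKM in the controls and 24.7, 25.5 and 20.1 FPKM in the pre-AML libraries, with 1, 2 and 0 markers above the highest control. Those for plasmacytoid dendritic cells (6 of 9 listed) were 14.5 to 20.5 FPKM and then 17.0, 22.1 and 40.7 FPKM, with 3, 4 and 4 above it. The largest part was Bst2, at 13.8 to 19.5 FPKM in the controls and 15.4 to 16.1 FPKM in the pre-AML libraries, except in pre-AML 3. There the largest part was Ly6d at 23.3 FPKM, a gene that is also in the B cell list. The 8 pan-leukocyte genes summed to 839 to 874 FPKM in the controls and to 896, 976 and 913 FPKM in the pre-AML libraries. This sum is dominated by Laptm5, at 729 to 750 and 737 to 866 FPKM. The median of the 8 genes was 9.75 to 21.8 FPKM in the controls and 10.4, 13.6 and 27.5 FPKM in the pre-AML libraries. Of the 8, 4, 5 and 6 were above the highest control.

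The steps between the pre-AML libraries differed with the pair compared. From pre-AML 1 to pre-AML 3 the FPKM of Gzma differed 1.23-fold, that of Gzmb 1.03-fold, that of Prf1 1.65-fold, that of Klrb1c 1.48-fold, that of Klrk1 2.23-fold and that of Klra8 0.833-fold. Over the same pair Ptprc differed 11.3-fold, Tyrobp 31.6-fold, Csf1r 112-fold and Cd79a, a B cell receptor chain, 457-fold. Ncr1 at 2.81-fold and Il2rb at 4.39-fold were intermediate. The pre-AML 1 values of Csf1r and Cd79a were only 0.0651 and 0.0516 FPKM, so their folds rest on few reads. In that library 3 reads on a gene of 2 kb gave 0.113 FPKM, and Cd79a lay below every control. Other leukocyte markers did not rise in this way. Lck measured 0.924 and 0.951 FPKM, and the neutrophil gene S100a8 2.38 and 0.124 FPKM. From pre-AML 2 to pre-AML 3 the steps lay closer together, at 1.93-fold for Gzma, 2.52-fold for Prf1, 3.69-fold for Klrb1c, 4.34-fold for Klrk1, 5.12-fold for Il2rb, 5.98-fold for Ncr1, 6.00-fold for Gzmb and 6.14-fold for Klra8. Over that pair Ptprc differed 8.79-fold, Cd79a 15.7-fold, Csf1r 15.9-fold and Tyrobp 35.1-fold. Pre-AML 1 and pre-AML 2 had 19.1 and 10.7 RPM of the 8 cytotoxic genes. Markers above the highest control numbered 0 and 8 for B cells, 3 and 8 for monocytes and macrophages, 6 and 4 for T cells and 5 and 5 for neutrophils. Counts for the other lists are given above. The part of other blood cells in the levels of the cytotoxic genes was not tested.

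**Figure D3:**
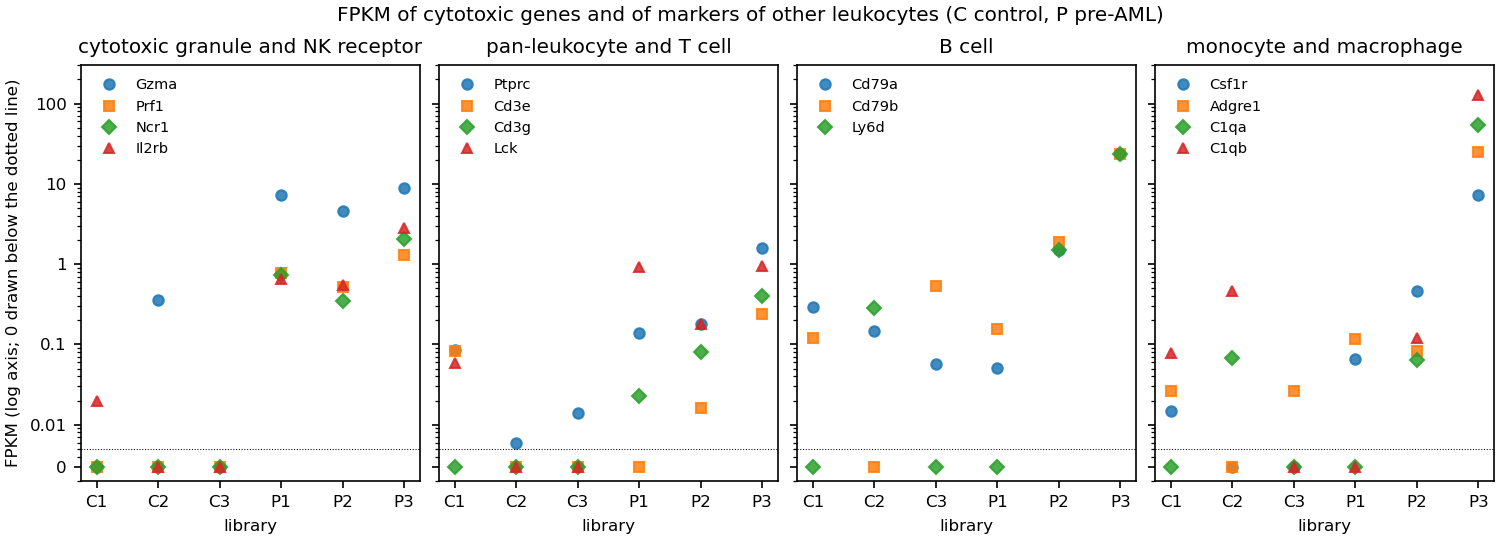
FPKM (vertical log axis, with values of 0 drawn below the dotted line) of 4 cytotoxic genes and of markers of T cells and all leukocytes, B cells, and monocytes and macrophages, in the control libraries C1 to C3 and the pre-AML libraries P1 to P3. From pre-AML 1 to pre-AML 3 Gzma differs 1.23-fold, Ncr1 2.81-fold, Csf1r 112-fold and Cd79a 457-fold, and from pre-AML 2 to pre-AML 3 they differ 1.93-fold, 5.98-fold, 15.9-fold and 15.7-fold. In pre-AML 1 Csf1r and Cd79a stand at 0.0651 and 0.0516 FPKM, so their folds from that library rest on few reads.

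The rest of the pathway was examined with 8 lists of 139 genes chosen by function, of which 117 were listed and 45 reached the mean required for the fit. The 117 include all 14 listed NK cell markers described above. None of the 45 was called in either direction by limma-trend or by limma-voom on the recovered reads. At an unadjusted p under 0.05 limma-trend gave 2 genes higher (Tyrobp and Cd48) and 5 lower (Srgn, Serpinb9, Arl8b, Cd96 and Itga2). Of all genes tested by limma-trend, 2.56% and 6.53% had such a p. At the same threshold limma-voom gave 1 of the 45 higher and 7 lower, beside 230 higher and 260 lower among all 4397 genes it tested. Tyrobp and Cd48 reached the required mean only through the pre-AML group, with control means of 0.262 and 0 FPKM. The median log2 difference of the 45 genes was -0.05, beside -0.06 for all genes tested, and 0.04 beside 0.05 with scaling to recovered reads. By values alone, 18 of the 117 (15.4%) were above every control in every pre-AML library and 7 (5.98%) were below every control, beside 7.53% and 5.74% of all listed genes. In RPM the counts were 20 and 8, for which no share of all genes was computed. Without pre-AML 3 the FPKM count above every control was 22 (18.8%, beside 11.0% of all genes). Without pre-AML 1 it was 35 (29.9%, beside 16.5%) and without pre-AML 2 it was 34 (29.1%, beside 13.5%).

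Of the 11 other listed granule proteases, activators and inhibitors, 0 were above every control in all pre-AML libraries, beside 7.53% of all listed genes. Srgn and Serpinb9 (18.2%, beside 5.74%) were below every control. Gzmk, a further granzyme gene, was at 0 except for 0.123 FPKM in pre-AML 3, and Gzmm measured 0.114 in control 3, 0.116 in pre-AML 3 and 0 FPKM elsewhere. Srgn, encoding the proteoglycan serglycin that packs granule contents in platelets and lymphocytes alike, measured 1705, 1632 and 1594 FPKM in the controls and 1385, 1143 and 678 FPKM in the pre-AML libraries. All its pre-AML values were below all control values, but the difference of -0.68 (SE 0.24, log2) was not called by limma (adjusted p = 0.522). Serpinb9, the inhibitor of granzyme B, likewise measured 36.2 to 38.0 FPKM in the controls and 32.8, 28.8 and 20.9 FPKM in the pre-AML libraries (log2 difference -0.45, SE 0.18, limma adjusted p = 0.522). Of the 14 listed genes of the secretion machinery, 0 were above every control, and Lyst and Stx7 (14.3%, beside 5.74% of all listed genes) were below every control. Stx11, the abundant syntaxin of platelet and lymphocyte granule release, measured 272 to 322 FPKM in the controls and 233 to 284 FPKM in the pre-AML libraries.

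Of the 27 other NK receptor genes listed, 6 (22.2%, beside 7.53% of all listed genes) were above every control in each pre-AML library, namely Klra7, Klrb1a, Klrb1f, Klrc2, Klrg1 and Klri2, and the same 6 were so without pre-AML 3 (then beside 11.0%). Klrg1, an inhibitory receptor of mature NK and effector T cells, was at 0 in all controls and at 1.01, 0.234 and 0.424 FPKM in the pre-AML libraries. Klra7, which encodes the inhibitory receptor Ly49G, measured 0, 0.0562 and 0 FPKM in the controls and 0.594, 0.262 and 0.339 FPKM in the pre-AML libraries. Another 2 genes of the list, Cd226 and Cd96 (7.41%, beside 5.74% of all listed genes), lay below every control in all pre-AML libraries. Cd226, encoding the adhesion receptor DNAM-1, carried by platelets too, measured 405, 461 and 446 FPKM in the controls and 405, 362 and 234 FPKM in the pre-AML libraries, and Cd96, its relative, 3.12 to 3.63 against 1.26 to 2.15 FPKM. For Cd96 the log2 difference was -0.63 (SE 0.17, limma adjusted p = 0.522).

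Among adaptors and kinases, 5 of 14 listed genes (35.7%, beside 7.53% of all listed genes) were above every control: Hcst, Tyrobp, Cd247, Zap70 and Lck. Hcst encodes DAP10, the adaptor of NKG2D, and was abundant in control platelets, at 119 to 124 FPKM against 132 to 159 FPKM in the pre-AML group (log2 difference 0.27, SE 0.13, limma adjusted p = 0.522). Tyrobp encodes DAP12, the adaptor of Ly49H and of many myeloid receptors, and measured 0.128, 0.533 and 0.126 FPKM in the controls and 4.85, 4.37 and 153 FPKM in the pre-AML libraries. Its log2 difference of 3.76 (SE 1.11, limma adjusted p = 0.522) was not called. Fcer1g, the γ chain used by NKp46 and by the platelet collagen receptor, was among the most abundant pathway genes, with 2280 to 2701 FPKM in the controls and 1867 to 2531 FPKM in the pre-AML libraries. Zap70, a kinase of T and NK cells, measured 0.0285, 0 and 0 FPKM in the controls and 0.176, 0.222 and 0.244 FPKM in the pre-AML libraries.

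Of the 10 listed ligands of NK receptors, Cd48 and Nectin2 (20%, beside 7.53% of all listed genes) were above every control. Cd48, a ligand of the receptor 2B4 carried by most leukocytes, was at 0 in all controls and at 0.759, 0.557 and 8.69 FPKM in the pre-AML libraries (log2 difference 1.58, SE 0.62, limma adjusted p = 0.522). H2-T23, the MHC class Ib ligand of the CD94 and NKG2 receptors, overlapped between the groups at 85.3 to 100.3 and 97.0 to 103 FPKM. Of the 15 listed genes of cytokine signalling, Il18rap and Il12rb2 (13.3%, beside 7.53% of all listed genes) were above every control. Il15 overlapped, at 19.4, 24.2 and 27.7 FPKM in the controls and 27.6, 22.3 and 16.0 FPKM in the pre-AML libraries. Il2rg, the common γ chain that pairs with the product of Il2rb, also overlapped, with 3.28, 2.79 and 1.20 FPKM against 2.00, 2.27 and 7.41 FPKM.

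Of the 11 listed transcription factor genes, Tbx21 and Id2 (18.2%, beside 7.53% of all listed genes) were above every control. Id2 measured 0.384 to 0.649 FPKM in the controls and 0.763, 0.909 and 13.4 FPKM in the pre-AML libraries (log2 difference 1.31, limma adjusted p = 0.526). Among the 15 genes of chemokines and homing, Itgam was above every control and Itga2 below every control. These shares of 6.67% each were near the 7.53% and 5.74% of all listed genes. Ccl5, a chemokine made by cytotoxic lymphocytes and stored by platelets, overlapped between the groups at 59.6 to 85.5 FPKM and 71.4 to 84.8 FPKM.

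**Figure D4:**
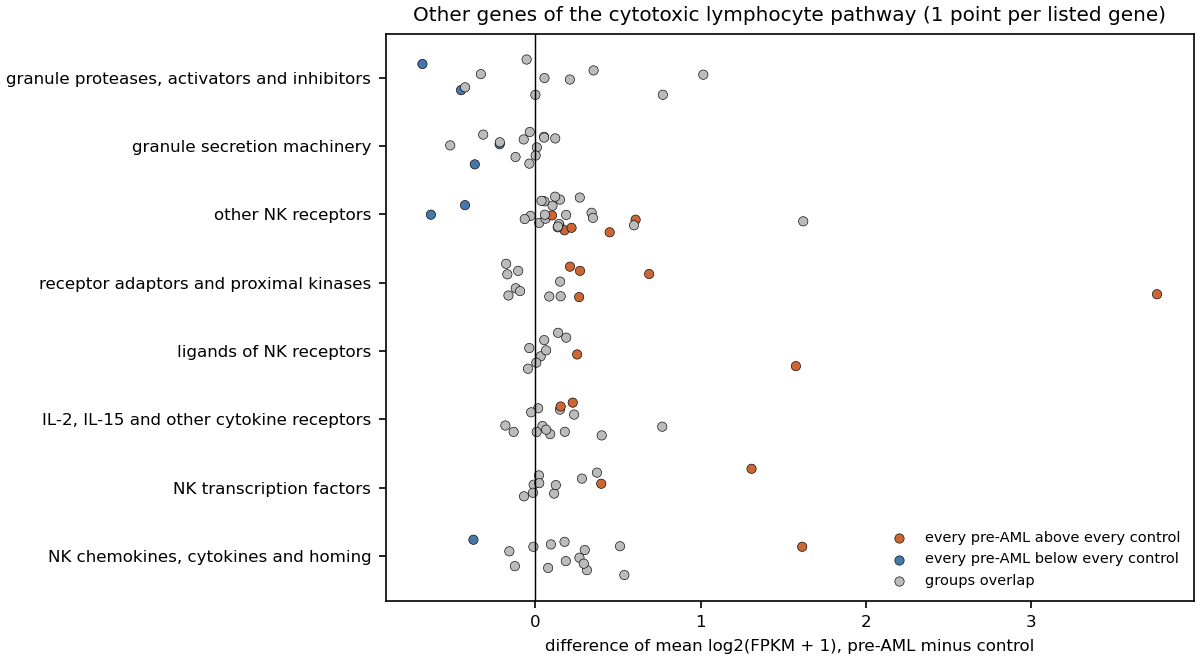
Difference of mean log2(FPKM + 1), pre-AML minus control (horizontal axis), for each listed gene of the 8 pathway lists (1 point a gene, by list), coloured by whether all pre-AML libraries lay above every control, below every control, or neither. The point farthest to the right is Tyrobp at 3.76, and the point farthest to the left is Srgn at -0.68.

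The genes outside the set whose profile over the 6 libraries was nearest to that of Gzma, by root mean square difference of centred log2(FPKM + 1), were Fos (0.75), Vim (0.80), AW112010 (0.82), Rgcc (0.84) and Rps23 (0.85). Nearest to the mean profile of the members were Mrps28, Sult1a1, Pisd-ps1, Hmox1 and Dcxr. Only genes that reached the mean required for the fit were compared, which left 45 of the 117 listed pathway genes. Even the nearest profile to Gzma among the genes compared was 0.75 log2 units away. No gene of the pathway lists was among the 5, but most of those genes had been left out beforehand.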

How the data were processed

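The deposited table held 1 FPKM value for each of 14975 genes and 6 libraries, made by the authors from reads aligned to mm10 with STAR. The counting program, its annotation and its use of strand were not given in the sources used here. Whole reads were recovered by multiplying FPKM with GENCODE M21 exon lengths (14911 genes) and a library size found by search, and 86.1% of the values came out whole within 0.05. Of the genes, 12142 were whole in all libraries, 1521 after a unit of their own (Klrk1 and Klrb1c among them) and 1248 were rounded.

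Libraries were grouped by their titles. A gene entered the test when its mean over the libraries reached 1 FPKM, and values were compared on log2(FPKM + 1) with limma-trend (limma 3.58.1, R 4.3.3; two-sided, Benjamini-Hochberg threshold 0.05), because the values are FPKM and not counts. Tables were made with Python 3.11.15, pandas 2.3.3, numpy 2.4.6 and scipy 1.17.1, and the fit was tested on simulated data. Folds of pooled reads have exact conditional binomial intervals, sums exact Poisson and shares Wilson intervals (95%), and 3 reads over the group is the floor for genes at 0 in all controls.

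The 10 genes and all gene, marker and motif lists were chosen with earlier results of these data known. Named besides the 10 genes were, per pathway list, up to 3 genes of highest mean FPKM and 3 of smallest p, per marker list the most abundant and defining genes, and the 5 nearest profiles. Gzmk, Gzmm, Klrg1, Klra7, Tbx21, Zap70, Il2rg, Eomes, Cd3g and the genes named in counts of non-overlap were named after their values were seen. Alternatives were the pseudocount, the filter, the scaling, limma-voom on recovered reads, a replicate block and leaving out each library. Of the B cell list fixed at the outset, 1 marker is not reported here.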

Additional observations from a re-analysis of the deposited data

How the results depend on the processing

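The choice of the 8 cytotoxic genes that do not overlap fixes their direction, and the size of the differences of the low genes depended on the pseudocount. Over all genes, limma-trend called 1 gene higher, but 0 without the filter on low values, 0 with at least 10 reads in every library (a filter that removes Gzma by its control reads), 0 when scaled to recovered reads and 0 by limma-voom. Leaving out a library gave 0 to 2 genes higher. It gave 0 without control 1 or control 3, and without pre-AML 3 it gave 2, Gzma and Tyrobp, which reach the required mean only through the pre-AML group, and so 1 of the other cytotoxic lymphocyte genes (0 to 1 over all libraries left out). The number of those genes above every control ranged from 22 to 35 when a library was left out, a comparison chosen after the data were seen, as were their count in RPM, the NK marker sum without Cma1 and the sum without Nkg7 and Ctsw. For the 10 genes, 93 of the single-gene values moved by less than 1 SD and 10 by more, with Gzma between 2.62 and 6.39 on the log2 scale. The log2 difference of Nkg7 turned sign in 1 alternative, at -0.02 without control 3.

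The replicate numbers of the labels were checked as a pairing. Deviations of same-numbered libraries from their group means correlated at -0.04, -0.12 and -0.17. With 3 libraries in a group these deviations are not independent, so the check cannot decide whether same-numbered libraries were processed together. A fit with the replicate block gave 1 gene higher and 0 lower. At these depths a gene of 2 kb under 0.0643 to 0.128 FPKM rests on fewer than 3 reads, which limits Klra8, Klrk1 and Klrb1c.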
